A study of Mus musculus with 28 samples.

Results

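Nucleolin (Ncl) and 6 other genes of nucleolar ribosome assembly were followed in RNA from mouse frontal cortex, over 28 libraries that each came from 1 male C57Bl/6 animal. The set held Ncl, Npm1, Fbl, Nop56, Nop58, Dkc1 and Nolc1, taken by symbol, and all 7 were present among the 15263 genes listed in either of the study's counts tables. They were selected on earlier results of these data, in which the lower level of Ncl under chronic social stress was already known. Values of these 7 genes in that comparison are therefore a description with no test, and of the comparisons made here only that of the diabetes cohort does not contain the values that chose them. Earlier results of that cohort were also known.

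The 4 groups formed 2 cohorts. In the first, 8 mice under chronic social stress (CSS) had been isolated for 7 weeks, with social confrontations during the last 20 days of that time, and were set against 8 control mice (CSS_control), all 21 weeks old. In the second, 6 mice with type 2 diabetes (T2D) had received 75 mg/kg streptozotocin, which destroys insulin-producing cells, with a high-fat diet (43.2% of energy) of 21 weeks, and were set against 6 control mice (T2D_control), all 30 or 31 weeks old. No genetic change is named for any group, and beyond control conditions the labels do not say how control mice were housed, fed or injected. The libraries were made from total RNA after removal of ribosomal RNA, so ribosomal RNA itself, the product of this pathway, was not measured.

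Ribosomes are assembled in the nucleolus, where RNA polymerase I transcribes a long ribosomal RNA precursor. Small nucleolar RNAs (snoRNAs) of the box C/D and box H/ACA families guide chemical marks onto that precursor, and large complexes cut and fold it into the small and large ribosomal subunits. Neurons have prominent nucleoli, and many genes of this pathway are activated by the Myc family of transcription factors.

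Ncl lies on chromosome 1 (86344719 to 86359400, minus strand) and Npm1 on chromosome 11 (33152287 to 33163206, minus strand) in GRCm38, the assembly that mm10 names. Fbl lies on chromosome 7 (28169710 to 28179269), Nop56 on chromosome 2 (130274430 to 130279313) and Nop58 on chromosome 1 (59684971 to 59719044), all on the plus strand. Dkc1 lies on chromosome X (75095854 to 75109777) and Nolc1 on chromosome 19 (46075863 to 46085530), likewise on the plus strand. All are protein-coding genes, and values are for the whole gene, without a split into exons, introns or UTRs. The annotation places 13 snoRNA genes within them, 5 in Nop56, 4 in Nop58, 3 in Ncl and 1 in Dkc1. None of the 13 was listed in either counts table, so the RNAs that these genes host were not measured as genes of their own. Some lie wholly or partly in annotated exons of their host on the same strand. Gm24451 covers 2.44% of the exon bases of Nop56, Snora75 1.31% of those of Ncl and Gm26293 0.781% of those of Nop58. Reads from such snoRNAs could be counted to the host, and their part in its level was not tested.

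RefSeq promoter windows (GRCm38.p6) were found for 5 of the 7 genes, and the 250 bases before the start site are shown for Ncl, the gene with the largest difference under stress, and for Dkc1, whose window held the fewest CpG dinucleotides of the 5. Capitals mark each CpG. Ncl is chr1:86359456-86359705 read on the minus strand, and Dkc1 is chrX:75095604-75095853 read on the plus strand.
Ncl: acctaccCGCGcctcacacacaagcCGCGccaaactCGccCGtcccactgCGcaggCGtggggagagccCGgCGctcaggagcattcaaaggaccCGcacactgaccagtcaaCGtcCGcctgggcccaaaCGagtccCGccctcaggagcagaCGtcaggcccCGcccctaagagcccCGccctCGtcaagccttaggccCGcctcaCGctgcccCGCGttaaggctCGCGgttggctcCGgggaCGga
Dkc1: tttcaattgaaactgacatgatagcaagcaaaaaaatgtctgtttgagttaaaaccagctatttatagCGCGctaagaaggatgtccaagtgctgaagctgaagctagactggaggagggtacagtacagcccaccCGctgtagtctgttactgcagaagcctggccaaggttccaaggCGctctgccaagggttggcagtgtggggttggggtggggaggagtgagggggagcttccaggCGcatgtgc
The Ncl stretch held 27 CpGs and that of Dkc1 held 5, beside a median of 15 over the promoters of genes in the counts tables. Nop56 held 25, Nolc1 14 and Nop58 11. CACGTG, the core of the E-box that Myc proteins bind and which reads the same on both strands, was searched in windows reaching 50 bases past the start. It occurred in 0 of the 5 windows, beside 9.49% of the windows of genes in the counts tables. A transcript start on C followed by at least 4 pyrimidines, read on the gene's own strand, also occurred in 0 of 5, beside 2.38%. That search depends on the exact start base. Of the 5 genes, only Dkc1 has the same start in RefSeq and in the coordinates given above. For Ncl the RefSeq start is 86359455 and the other is 86359400, and only RefSeq starts were searched. Npm1 and Fbl had no window.

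Library totals, in M of estimated counts, ranged from 15.2 to 21.9 (CSS), 14.3 to 37.5 (CSS_control), 14.3 to 22.7 (T2D) and 12.1 to 21.6 (T2D_control). RNA integrity numbers (RIN) lay between 8.5 and 10. All 10 markers of excitatory neurons and all 7 of inhibitory neurons were listed, and no listed marker of the cell types examined was at 0 in all libraries of a group. Markers of striatal neurons, from a neighbouring region, summed to between 130 and 1052 CPM (counts of a gene per M of the library total) over the T2D libraries and to between 165 and 943 CPM over their controls. The CSS_control titles carry codes, and 4 libraries coded MC_C1 are set apart below from 4 coded MC_C2 or MC_C3. What the codes stand for is not given in the sources used here.

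For the stressed cortex the question was how these genes differed from their own controls. All 7 were lower on average in stressed mice, and 2 of them, Ncl and Npm1, were past an adjusted p of 0.05 in edgeR's quasi-likelihood test over all genes. Of all 15097 genes listed, 4.52% were past that threshold, 2.42% lower and 2.11% higher, and 48.7% had a log2 change below 0. The median change of the 7 genes was -0.18 on the log2 scale, beside 0.01 over all genes. Because the choice of genes used this comparison, nothing is read from these counts.

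Nucleolin binds the ribosomal RNA precursor and the chromatin of its genes, and acts in transcription by RNA polymerase I and in the first processing steps. In CSS the lowest Ncl level was 130.5 CPM, the median 145 and the highest 176. In CSS_control the lowest was 189, the median 207 and the highest 233. Every stressed library was below every control library, which was so of 0.397% of all genes. Mean levels were 152 ± 17.3 and 208 ± 18.4 CPM (SD, n = 8 each), a log2 change of -0.46 ± 0.07 (SE), or 1.37-fold lower.

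Nucleophosmin (Npm1) is an abundant chaperone of the outer nucleolus that helps later assembly and export of subunits. It ranged from 119 to 146 CPM in CSS with a median of 127, and from 134.1 to 187 CPM in CSS_control with a median of 154. The groups overlapped, with 6 of 8 stressed libraries below the lowest control and 8 of 8 below the control mean. Means were 129 ± 9.19 and 154 ± 16.7 CPM (SD, n = 8 each), a log2 change of -0.26 ± 0.06 (SE). Its call was lost when CSS_control 1 (log2 -0.21), CSS_control 2 (-0.26), CSS 5 (-0.25) or CSS 6 (-0.24) was left out, whereas Ncl was called in all 16 such fits. Fits of this kind reuse the values that chose the genes, so they describe the calls and support nothing.

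**Figure D1:**
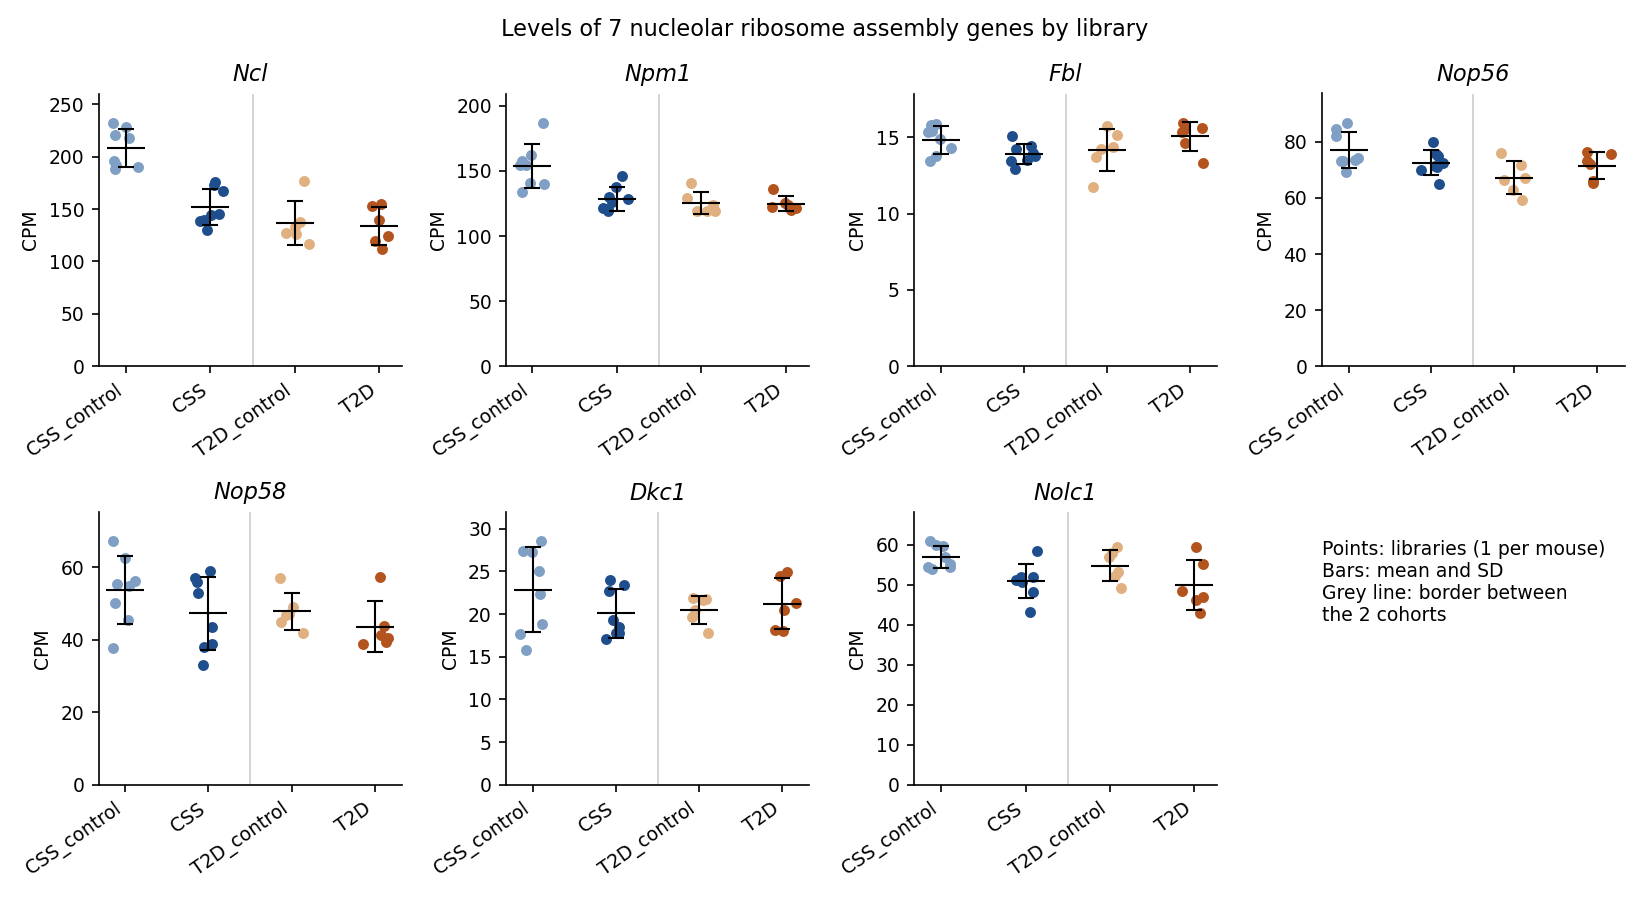
Levels of the 7 genes in CPM (vertical axes from 0) in each library, by group, with the mean and SD as bars. Ncl is the panel in which the CSS points (130.5 to 176 CPM) lie wholly below those of CSS_control (189 to 233 CPM).

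Nolc1, a scaffold that shuttles between nucleolus and Cajal bodies and chaperones snoRNA particles, was not past the threshold. It ranged from 43.1 to 58.4 CPM in CSS with a median of 51.2, and from 54.0 to 60.9 CPM in CSS_control with a median of 56.1. Of the stressed libraries, 7 of 8 were below the lowest control and the eighth was inside the control range. The log2 change was -0.16 ± 0.05 (SE), and it was called in 1 of the 16 fits that left out 1 library and by DESeq2 among the other settings.

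The 3 core proteins of box C/D particles overlapped with their controls and were not past the threshold. Fibrillarin (Fbl), the enzyme that methylates ribose in ribosomal RNA, was at 13.9 ± 0.669 CPM in CSS and 14.8 ± 0.916 CPM in CSS_control (SD, n = 8 each). Nop56 was at 72.5 ± 4.43 and 77.1 ± 6.42 CPM, and its partner in the same scaffold, Nop58, at 47.2 ± 10.1 and 53.7 ± 9.34 CPM. Their log2 changes were -0.09 ± 0.06, -0.09 ± 0.05 and -0.18 ± 0.13 (SE). Dkc1, the pseudouridine synthase of box H/ACA particles, was at 20.1 ± 2.84 CPM in CSS and 22.9 ± 4.95 CPM in its controls, a log2 change of -0.19 ± 0.12. In each of these 4 genes at most 1 stressed library was below the lowest control. Nop58 and Dkc1 had wide groups, with an SD of 17.4% and 21.6% of the mean in CSS_control, beside 8.82% for Ncl.

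The control libraries themselves differed by title code. Ncl was at 225 ± 6.83 CPM (218 to 233) in the 4 controls coded MC_C1 and at 192 ± 3.21 CPM (189 to 196) in the 4 coded MC_C2 or MC_C3 (SD, n = 4 each), with no overlap. The log2 change of Ncl in CSS was -0.57 ± 0.08 (SE) against the first 4 and -0.34 ± 0.08 against the other 4, and every CSS library was below both. Npm1 was at 165 ± 14.9 and 142 ± 8.66 CPM, with changes of -0.36 ± 0.07 and -0.15 ± 0.06. Against MC_C2 and MC_C3 alone neither gene was called (edgeR adjusted p = 0.225 and 0.340), nor was any other gene of the table, in which 1971 were at an unadjusted p under 0.05. Whether the code marks a cage, a litter or a batch is not stated, and its part in the result was not tested.

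**Figure D2:**
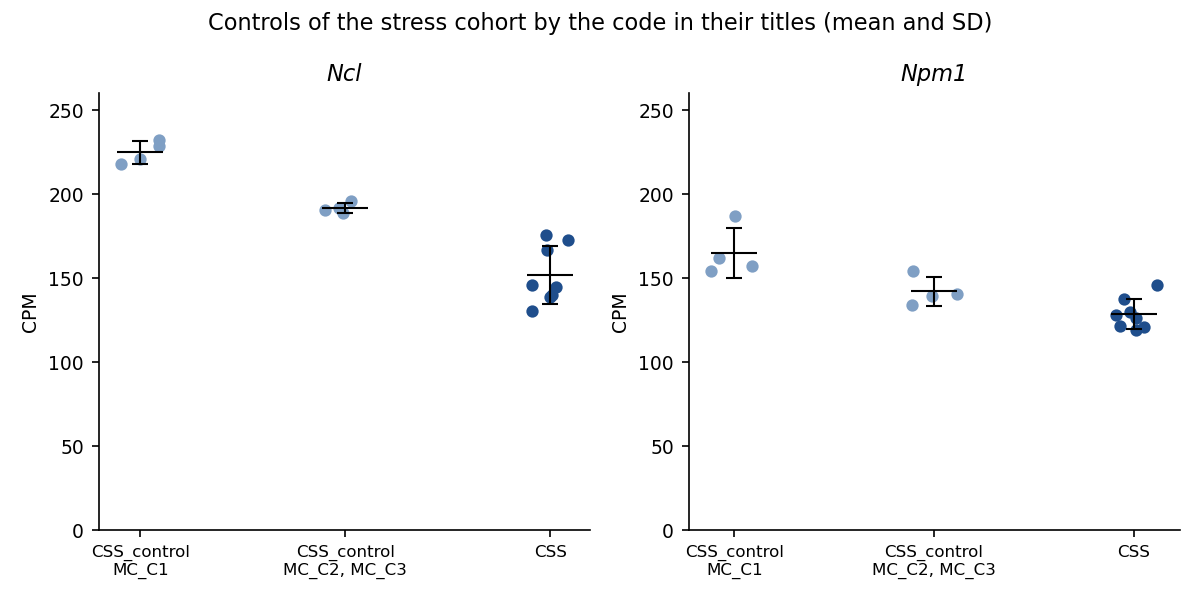
Ncl and Npm1 in CPM (vertical axes from 0) in the controls of the stress cohort, split by the code in their titles, and in the stressed mice, with the mean and SD as bars. The MC_C1 controls of Ncl (218 to 233 CPM) lie above the MC_C2 and MC_C3 controls (189 to 196 CPM), and both lie above the stressed mice.

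Markers of some cell types moved in the same comparison. Of 9 microglial markers, 5 were called lower and none higher, and their sum was 186 to 363 CPM in CSS and 351 to 403 CPM in CSS_control. Of 5 endothelial markers 2 were called higher, as were 1 of 6 astrocyte and 1 of 6 meningeal fibroblast markers, whose sums were 126 to 184.03 against 127 to 155, 3550 to 4435 against 3145 to 3677, and 36.8 to 119 against 34.6 to 65.4 CPM. Of 4 markers of oligodendrocyte precursors 1 was called higher (sums of 126 to 171 against 127 to 149.5 CPM), and of 7 of inhibitory neurons 1 was called lower (697 to 920 against 752 to 946 CPM). The 10 excitatory neuron markers had no call, with sums of 1586 to 2580 CPM in CSS and 1721 to 2501 CPM in its controls. In bulk tissue fewer cells of a type and less RNA per cell cannot be told apart, and the part of cell makeup in the levels of these 7 genes was not tested.

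The same was asked of the diabetic cortex. None of the 7 genes was called by edgeR (adjusted p between 0.838 and 0.991), none was at an unadjusted p under 0.05, and DESeq2 and limma voom called none either. Over the whole table the share called was 0.0% of 15054 genes, with 5.84% at an unadjusted p under 0.05 and 4 genes called by DESeq2. Of the 7, 4 had a log2 change below 0, and their median was -0.01.

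Ncl ranged from 112 to 155 CPM in T2D with a median of 131.998, and from 117 to 177 CPM in T2D_control with a median of 130. The groups covered nearly the same range, with 3 of 6 diabetic libraries below the control mean. Its log2 change was -0.03 ± 0.11 (SE), with a 95% interval of -0.25 to 0.20. The highest control, T2D_control 3, stood apart at 177 CPM, the next being 138. Without it the change was 0.06 on the log2 scale (edgeR adjusted p = 0.850). Over 11 other settings with all 12 libraries, 1 of them with RIN as a covariate, the estimate lay between -0.12 and -0.02 and was never called. Of the 11, the setting with no filter repeats the main fit, because the default filter removed no listed gene. T2D_control 3 also had the lowest RIN of all, 8.5. In CSS the library of lowest RIN, CSS 5 at 9.0, likewise had the highest Ncl of its group, 176 CPM. In T2D the lowest RIN was that of T2D 5, 8.7, at 153 CPM, below T2D 1 at 155 CPM (RIN 9.2). In CSS_control the lowest RIN, 9.3, was shared by CSS_control 3 at 218 CPM and CSS_control 5 at 192 CPM. The part of RNA quality in these levels was not tested. Mean RIN was 9.05 in T2D and 9.37 in T2D_control.

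Npm1 ranged from 120 to 136 CPM in T2D and from 119 to 141 CPM in its controls, with medians of 123 and 122 and a log2 change of -0.01 ± 0.06 (SE). Its 95% interval was -0.14 to 0.13. Nolc1 and Nop58 had the lowest estimates, both -0.13 (SE 0.09 and 0.10), and in each of them 4 of 6 diabetic libraries were below the lowest control. Fbl and Nop56 had estimates of 0.09 (SE 0.09 and 0.07), and Dkc1 of 0.05 ± 0.10. All 7 intervals included 0. The widest was that of Ncl, from -0.25 to 0.20, and that of Nop58 ran from -0.35 to 0.08. Differences of these sizes could not be told from 0 with 6 mice a group.

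**Figure D3:**
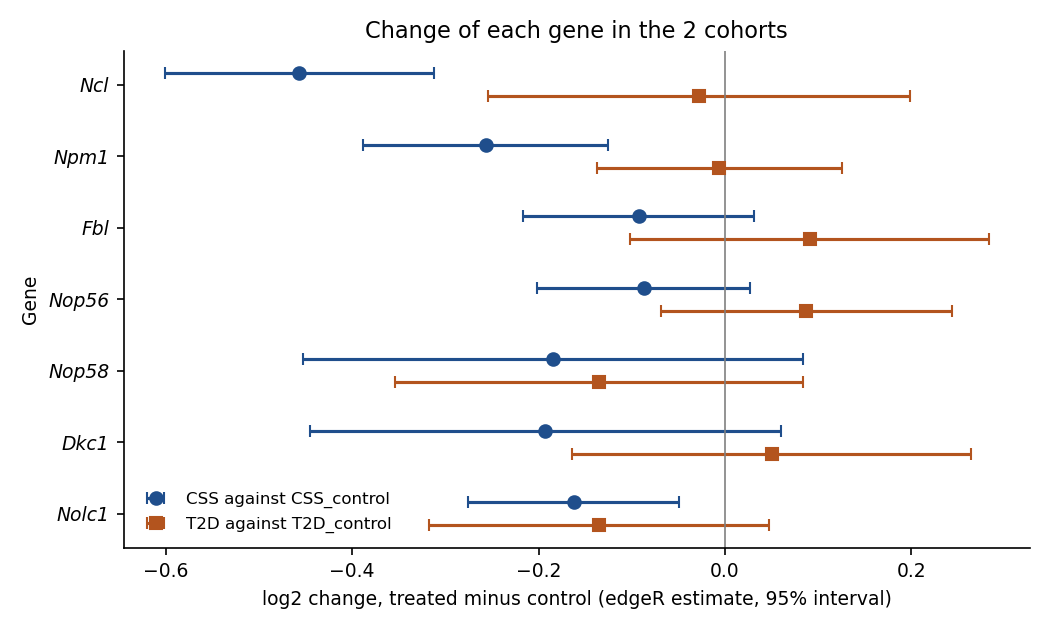
Estimated log2 change of each gene (points, horizontal axis, treated minus control) with its 95% interval, for CSS (circles) and T2D (squares). The CSS intervals of Ncl (-0.60 to -0.31), Npm1 and Nolc1 lie below 0, and every T2D interval includes 0. The CSS values are those known when the genes were chosen.

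The difference between both changes was tested itself, over all 28 libraries and the 14888 shared genes. It contains the CSS comparison and is not independent of the choice of genes. None of the 7 was called by edgeR, beside 0.0806% of all genes, and limma voom called none. At an unadjusted p under 0.05 were 3 of the 7, beside 12.4% of all genes. For Ncl the CSS change minus the T2D change was -0.44 ± 0.13 (SE), with a 95% interval of -0.70 to -0.18 (edgeR adjusted p = 0.149). For Npm1 it was -0.26 ± 0.09 (edgeR adjusted p = 0.249). Without T2D_control 3 the Ncl difference was -0.52 and was called (edgeR adjusted p = 0.0471). The call of this difference thus turned on 1 control library.

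Levels in the 4 groups were then put on 1 scale by normalizing all 28 libraries together. Ncl was highest in CSS_control at 210 ± 18.5 CPM, followed by CSS at 152 ± 17.5 (SD, n = 8 each), T2D_control at 136 ± 20.5 and T2D at 133.4 ± 18.5 (SD, n = 6 each). CSS_control was apart from the other 3 groups, with its lowest library at 189 CPM against a highest of 176 in any of them, whereas neighbours among those 3 differed by less than 1 SD. CSS_control was also the highest group for Npm1, Nop56, Nop58, Dkc1 and Nolc1, and for Fbl it was T2D. Some of these gaps were within 1 SD, such as that of Dkc1 (23.0 ± 4.98 in CSS_control and 21.2 ± 3.19 in T2D). The order contains the CSS values known when the genes were chosen. The share of all genes with such an order or gap was not computed, so nothing is read from either. Npm1 followed the order of Ncl, from 155 ± 16.9 in CSS_control to 129 ± 9.51, 125 ± 9.18 and 124 ± 6.69 CPM. The cohorts differed in age and were deposited in separate tables, so age, cohort and processing cannot be told apart in this order.

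Per kilobase of the annotated coding transcript, Npm1 had the highest level, 94.7 CPM per kb in CSS_control, followed by Nop56 at 41.3 and Ncl at 25.6. Nolc1 was at 15.7, Fbl at 12.5, Dkc1 at 8.21 and Nop58 at 5.68 CPM per kb. The Ncl and Nop58 transcripts used are 8202 and 9507 bases long with single exons of 5978 and 7774 bases, so their per-length levels would be higher if shorter forms prevail. Near-identical copies, at least 90% alike over at least 300 bases, numbered 8 for Npm1, 5 for Nop56, 2 each for Fbl and Dkc1, 1 for Ncl and 0 for Nop58 and Nolc1. Reads of Npm1 and Fbl could be shared with a listed pseudogene of each, Gm14776 and Gm6211. Exons on the opposite strand overlapped 1.09% of Dkc1 (Mpp1) and 0.122% of Nop56 (Idh3b).

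Apart from the 7, 201 symbols of the pathway were listed, of which 190 were in each table. In CSS 9 of the 190 were called lower and 2 higher, 5.79% beside 4.52% of all genes. A log2 change below 0 was found in 122 of 190 (64.2%), beside 48.7% of all genes, and the median change was -0.06 beside 0.01. In T2D none was called by edgeR, DESeq2 or limma voom, and the median was -0.02 beside 0.00. At an unadjusted p under 0.05 were 8 of the 190 (6 lower and 2 higher), beside 5.84% of all genes.

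**Figure D4:**
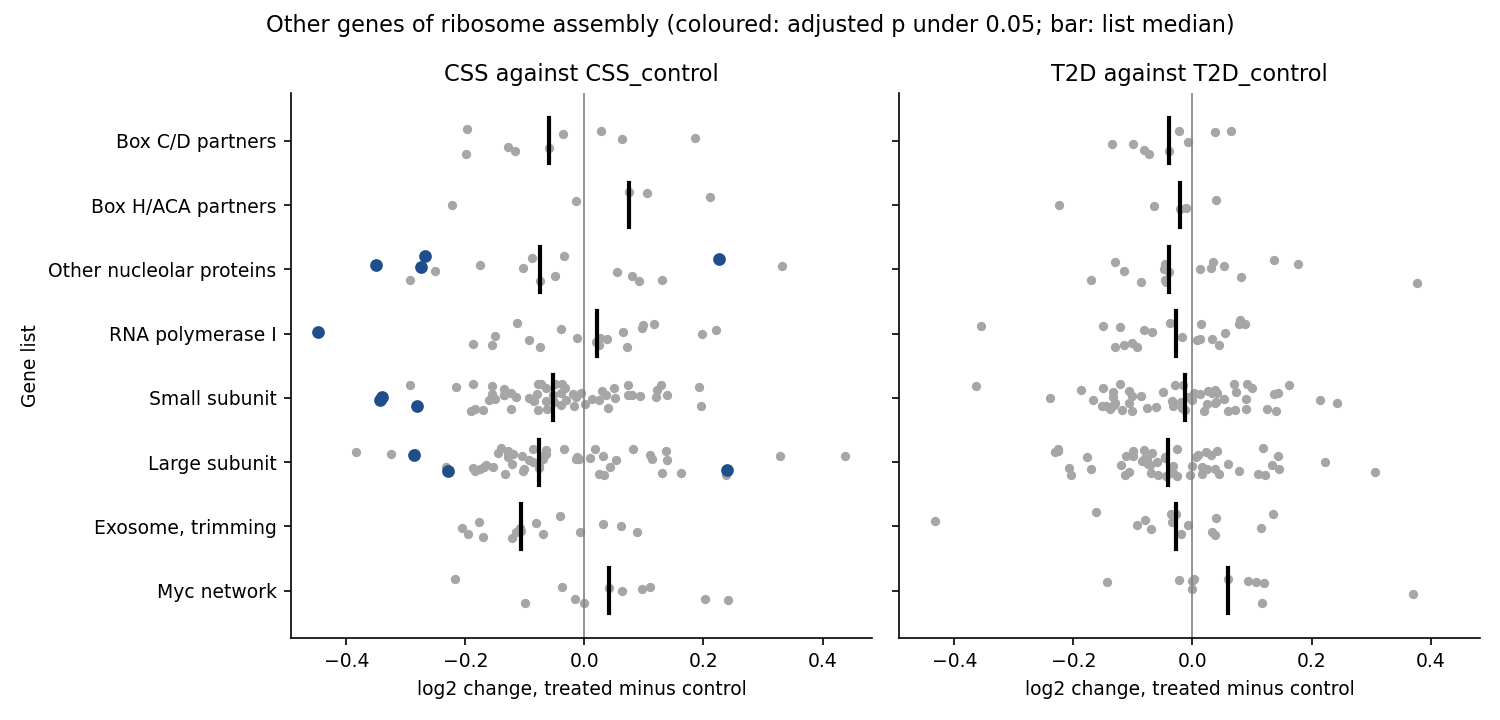
Log2 changes (horizontal axes, treated minus control) of the other pathway genes by list in CSS (left) and T2D (right), 1 point per gene, with list medians as bars and genes past an adjusted p of 0.05 coloured. In CSS 9 coloured genes lie below 0 and 2 above it, and in T2D none is coloured.

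Among 17 other nucleolar proteins, 3 were called lower in CSS and 1 higher. Rrp1, a factor of large subunit processing, ranged from 181 to 222 CPM in CSS (median 217) and from 236 to 290 in its controls (median 247). Those groups did not overlap, and the log2 change was -0.28 ± 0.05 (SE; edgeR adjusted p = 0.0126). Nop53 likewise had no overlap, at 36.2 to 47.3 CPM (median 44.0) against 48.8 to 63.6 (median 52.9), with a change of -0.35 ± 0.07 (edgeR adjusted p = 0.0123). Gnl3, the GTP-binding protein nucleostemin, fell by 0.27 on the log2 scale, from 33.3 ± 2.08 to 27.7 ± 2.20 CPM (SD, n = 8 each; edgeR adjusted p = 0.0196). Rbm28 rose by 0.23, from 42.4 ± 2.03 to 49.6 ± 3.02 CPM (edgeR adjusted p = 0.0191). In T2D the changes of these 4 were -0.04, 0.14, -0.17 and -0.09, none past the threshold.

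Of the remaining nucleolar proteins with set names, Npm3, a relative of nucleophosmin, was at 2.45 ± 0.425 CPM in CSS and 1.956 ± 0.361 CPM in CSS_control (SD, n = 8 each) and did not pass. The helicase Ddx21 (log2 -0.10), Mybbp1a (0.06) and treacle (Tcof1, 0.08) did not pass in CSS either. In T2D, Rrp1b had an estimate of 0.38 and Npm3 of 0.18, neither past the threshold.

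RNA polymerase I genes had 1 call among 20 in CSS. Taf1d, a subunit of the promoter selectivity factor, fell from 48.1 ± 8.48 to 35.2 ± 3.15 CPM (SD, n = 8 each), by 0.45 on the log2 scale (edgeR adjusted p = 0.0172). The catalytic subunits Polr1a and Polr1b had changes of 0.03 and 0.02, the initiation factor Rrn3 of -0.07 and the promoter binding factor Ubtf of -0.09, none past the threshold. The list had 9 of 20 genes below 0 and a median of 0.02. In T2D its lowest estimate among the named genes was Polr1e at -0.35, which did not pass.

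Of 59 genes of the small subunit processome, 3 were called lower in CSS and 0 higher, and 41 were below 0, with a median of -0.05. Utp3 fell by 0.34 on the log2 scale, from 26.2 ± 2.93 to 20.7 ± 2.38 CPM, and the helicase Ddx49 fell by 0.34, from 20.1 ± 2.02 to 15.8 ± 1.66 CPM (SD, n = 8 each; edgeR adjusted p = 0.0262 and 0.0203). Nop14 fell by 0.28 (edgeR adjusted p = 0.0488). In T2D Ddx10 and Wdr3 had the smallest p of the list, with estimates of -0.15 and -0.19, and did not pass.

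Of 54 large subunit genes 2 were called lower and 1 higher, 36 were below 0, and the median was -0.08. Mak16 and Nsa2 fell by 0.23 and 0.29 on the log2 scale, and Efl1, a GTPase of the last step that frees the subunit for translation, rose by 0.24 (edgeR adjusted p = 0.0311, 0.0481 and 0.0455). Nol8 was just outside the threshold at -0.33 ± 0.09 (edgeR adjusted p = 0.0504), and the methyltransferase Nop2 was at 0.01. In T2D Nol8 had an estimate of -0.21 and Sdad1 of 0.31, and neither passed.

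Several of these calls lay near the threshold. With 1 library left out at a time, Efl1 (log2 0.21 to 0.27) and Nop14 (-0.31 to -0.24) were each called in 3 of 16 fits, Nsa2 (-0.33 to -0.24) in 4, Mak16 (-0.26 to -0.21) in 10 and Utp3 (-0.37 to -0.30) in 13, and Rrp1, Nop53, Gnl3, Rbm28, Taf1d and Ddx49 in all 16. Exons of a gene on the opposite strand covered 39.4% of Mak16 (Tti2), 37.2% of Nsa2 (Fam169a) and 29.8% of Ddx49 (Homer3). The library kit keeps strand, but whether the counting used it is not given in the sources used here, so values of these 3 genes are uncertain.

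The direct partners of the 7 proteins had no edgeR call in either cohort, and limma voom made none. For the counts at an unadjusted p under 0.05 that follow, the share over all genes was 21.5% in CSS and 5.84% in T2D. Of 9 box C/D partners, 6 were below 0 in CSS, Snu13, the core protein that binds the snoRNA first, was at -0.04, and the assembly factor Ruvbl1 at -0.20 ± 0.07 (edgeR adjusted p = 0.0872); at an unadjusted p under 0.05 were 2 lower and 0 higher in CSS. Among the 5 of box H/ACA, Nhp2 was at -0.22 ± 0.08 (edgeR adjusted p = 0.0927), Gar1 at -0.01 and Nop10 at 0.10, beside -0.19 for Dkc1, with which they form a particle; 1 lower and 1 higher were at an unadjusted p under 0.05. DESeq2 called Ruvbl1 and Nhp2 lower in CSS. Of 15 genes of the exosome and of precursor trimming, 12 were below 0 in CSS with a median of -0.11, and none was called by edgeR, with 4 at an unadjusted p under 0.05. Xrn2, which DESeq2 called, and Exosc1 were at -0.18 and -0.20. In T2D Eri1 of that list was at 15.3 ± 2.38 CPM against 20.7 ± 1.88 in controls (SD, n = 6 each), with 6 of 6 diabetic libraries below every control, as in 0.0864% of all genes, and did not pass (edgeR adjusted p = 0.825). Of 11 genes of the Myc network edgeR and DESeq2 called none in either cohort, with 0 in CSS and 1 in T2D at an unadjusted p under 0.05. Myc itself was low, at 1.74 ± 0.564 CPM in CSS and 1.86 ± 0.443 CPM in CSS_control (SD, n = 8 each), with changes of -0.10 in CSS and 0.09 in T2D.

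The 7 genes did not vary together closely between libraries of a group. Deviations of log2 CPM from the group mean were correlated over the 28 libraries, as a description, since all values of a library share its depth, composition and RNA quality. Of 21 pairs 18 had a Pearson r above 0, with a median of 0.28. The highest was that of Npm1 with Nop58 (0.53) and the lowest that of Ncl with Nop56 (-0.23). Ncl and Npm1, both called under stress, had an r of 0.04 (0.34 in the stress cohort alone and -0.40 in the diabetes cohort alone).

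Other genes tracked Ncl more closely. Compared were 10811 genes listed in both tables whose mean log2 CPM over the 28 libraries reached 3. Among them the highest r with Ncl were those of mt-Nd5 (0.85) and mt-Nd4 (0.81), subunits of respiratory complex I encoded in the mitochondrial genome. Spop (0.79), Ash1l (0.78) and Ppp2r2a (0.78) followed. Over the 10811 genes the median r with Ncl was -0.01, with a 5th percentile of -0.44 and a 95th of 0.48. The r of Ncl with mt-Nd5 was 0.93 in the stress cohort and 0.79 in the diabetes cohort alone. The title code enters it: of the controls coded MC_C1, 4 of 4 were above the group mean for both genes, and of those coded MC_C2 or MC_C3, 0 of 4 for either. With these controls centred within their code set, a choice made after seeing the data, r was 0.82 over the 28 libraries and 0.89 in the stress cohort. T2D_control 3 and CSS 5, of the lowest RIN in their groups (8.5 and 9.0), had the highest deviations of both genes there. In T2D and CSS_control the libraries of lowest RIN were not the highest for either gene. The part of RNA quality in this likeness was not tested. In CSS mt-Nd5 was at -0.42 ± 0.12 and mt-Nd4 at -0.46 ± 0.11 on the log2 scale (SE; edgeR adjusted p = 0.0574 and 0.0284), whereas Spop, Ash1l and Ppp2r2a were at -0.01, 0.10 and 0.02. Of the 5 genes, 2 thus had a CSS estimate about as low as that of Ncl, and the other 3 did not. For the other members the most alike gene was Psip1 for Npm1 (0.80), Zfp397 for Fbl (0.68), Snhg5 for Nop56 (0.78), Zfp830 for Nop58 (0.74), Ost4 for Dkc1 (0.73) and Fbxo11 for Nolc1 (0.84).

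**Figure D5:**
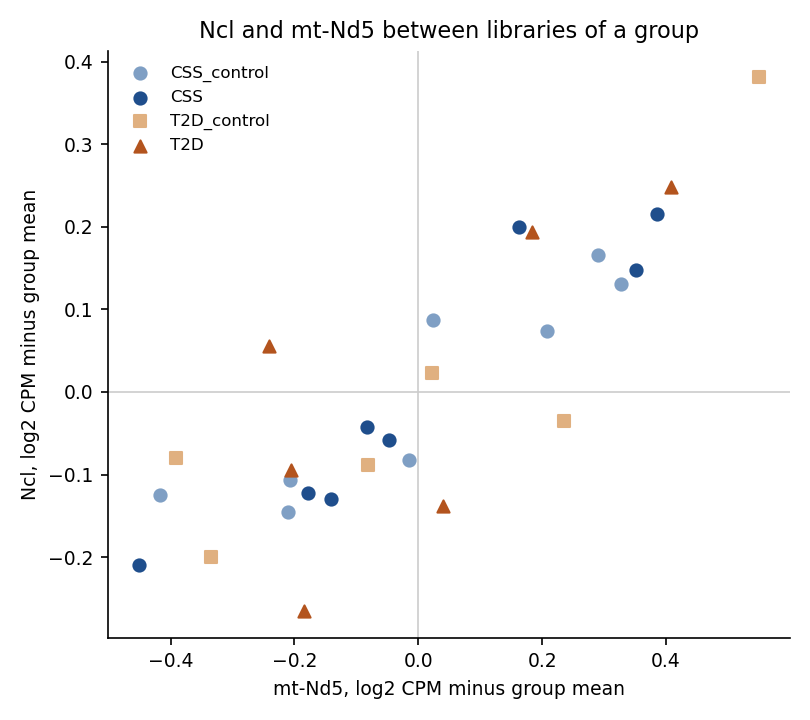
Deviation of Ncl (vertical axis) against that of mt-Nd5 (horizontal axis) from their group means, in log2 CPM, 1 point per library with marks by group. The points of the 4 groups lie along 1 rising band (Pearson r 0.85 over 28 libraries).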

How the data were processed

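RNA of the frontal cortex was sequenced in 28 mice, with TruSeq Stranded Total RNA libraries after Ribo-Zero Gold depletion, per the labels' protocols. Estimated counts of genes were deposited by the authors in 1 table for each cohort, and Salmon 1.1.0 and the build mm10 are named in the submitters' processing notes. How transcripts were summed to genes, any scaling for length and the use of strand were not given in the sources used here.

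Counts were rounded, scaled by TMM and tested with edgeR 4.0.16 in R 4.3.3 (robust quasi-likelihood test), each cohort by itself, with Benjamini-Hochberg adjustment over all genes of the table and a threshold of 0.05 set on the adjusted p. Where no tool stands beside an adjusted p, it comes from this fit. edgeR's default filter removed no listed gene. A further fit over 28 libraries subtracted the T2D change from that in CSS. Levels are CPM, counts per M of the scaled library total, with the SD over libraries, each from 1 mouse per the labels. A single count is worth less than 0.1 CPM at the lowest total, so depth limited mainly the lowest genes, such as Myc. Correlations used log2 CPM with a prior count of 2. Copies were searched with blastn 2.17.0 in the GENCODE M21 transcripts. The fits were tested on simulated data, and figures were drawn with matplotlib 3.10.9.

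The members, lists and tests were chosen with earlier results of these data known. Named genes are the 7 members, the 2 of smallest p of each list in each cohort, called genes of lists with at most 5 calls, 15 set genes, and the most correlated genes (5 for Ncl, 1 for each other member). Alternatives were DESeq2 1.42.0, limma 3.58.1 (voom), other scalings, filters and covariates, subsets of controls, a replicate block and leaving out each library. The numbers in the titles were not treated as pairs of mice in the main fits. The correlation of same-numbered libraries lay between -0.24 and 0.37 in the CSS cohort and between -0.09 and 0.18 in the T2D cohort. Such correlations cannot show whether mice were paired. Proteins were not analysed here.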

Additional observations from a re-analysis of the deposited data

Results flagged for a closer look

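In 3 of the 28 combinations of gene and group, 1 library lay far from the rest of its group. About 1.4 would be expected by chance if the 28 were independent, which they are not, because the genes share libraries. The share over all genes was not computed, so no excess is read from this count. Ncl was at 177 CPM in T2D_control 3, where the next highest control was at 138 CPM. Npm1 was at 136 CPM in T2D 3, with the next at 125 CPM. Nop58 was at 57.4 CPM in T2D 6, with the next at 43.8 CPM. All 3 were the highest of their group and came from the diabetes cohort, each from a different mouse, and no explanation was tested.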

How the results depend on the processing

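The number of genes called in CSS, 683, became 1280 with DESeq2, 1130 against controls MC_C1 only and 0 against controls MC_C2 and MC_C3 only, and lay between 222 and 794 with 1 library left out. The 2 calls among the 7 members became 0 against MC_C2 and MC_C3 and 1 to 3 with 1 library left out. Ncl was called in 12 of the 13 other settings, with a log2 change between -0.57 and -0.34, as was Npm1, between -0.36 and -0.15, and no CSS estimate of a member changed sign. Of the 13, the setting with no filter repeats the main fit, because the default filter removed no listed gene. Pathway genes called lower, 9, became 20 with DESeq2, 16 against MC_C1, 0 against MC_C2 and MC_C3, and 5 to 13 with 1 library left out. Those called higher, 2, became 1 with a RIN covariate, with all 4 groups in 1 fit, with limma voom, with upper quartile scaling and with the replicate block, 0 against MC_C2 and MC_C3, and 1 to 2 with 1 library left out. The 12 genes whose changes differed between cohorts became 0 with limma voom and 0 to 32 with 1 library left out, and the 0 members among them became 1 without T2D_control 3 (0 to 1 over these fits). In T2D DESeq2 called 4 genes, none of them a member or a pathway gene. With the replicate block 478 genes were called in CSS, Ncl at -0.46 and Npm1 at -0.25 still among them, and 0 in T2D; same-numbered libraries correlated best in 1 of 8 and 1 of 6 pairs. Causes were not tested.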

Other observations

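The resemblance of Ncl to mt-Nd5 and mt-Nd4 did not extend to all genes of the mitochondrial genome, which were looked at after that resemblance was seen. Of the 13 protein genes encoded there, 9 had a Pearson r above 0 with Ncl over the 28 libraries (deviations from group means), with a median of 0.49. Those of mt-Nd2 (0.73), mt-Nd1 (0.72), mt-Cytb (0.70) and mt-Atp8 (0.69) were high. Those of mt-Co3 (-0.08), mt-Co2 (-0.09) and mt-Nd3 (-0.38) were below 0. In CSS, mt-Nd1, mt-Nd2, mt-Cytb and mt-Atp8 had log2 estimates of -0.42, -0.40, -0.43 and -0.51, whereas mt-Nd3 was at 0.41 ± 0.20 and mt-Co2 at 1.29 ± 0.43 (SE). The lowest of the 13 in CSS was mt-Nd6 at -0.89 ± 0.16 (SE), with an r of 0.49. In T2D mt-Co2 was at 1.06. All are encoded on 1 genome, and their values share library composition, RNA quality and the assignment of reads among short neighbouring genes. The part of these was not tested.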
